A study of Mus musculus with 12 samples.

Results

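Cardiac fibroblasts from aged mice were compared on day 3 after they had received vectors for 3 heart transcription factors, Mef2c, Gata4 and Tbx5 (together MGT), with fibroblasts of the same age that had received a LacZ vector. The comparison holds the 2 MGT libraries and the 2 LacZ libraries of 18-month-old mice, 4 of the 12 libraries in the series, and all 16383 genes listed in the deposited table. Of these genes 11940 passed the filter on low counts and were tested. The other 8 libraries, MGT and LacZ cells of 3-month-old mice and of neonatal mice (postnatal days 1 to 3), entered the same fit and gave the values at other ages. All animals were labelled wild type, all cells were primary cells from the heart, and every group had received a vector. The labels name no promoter for the vectors, and nothing in them ties the 2 libraries of a group to separate animals or cultures. Adjusted p-values therefore measure the spread between these libraries, which may be technical.

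Mef2c, Gata4 and Tbx5 are DNA-binding activators that act together at the regulatory regions of heart genes, and their delivery to fibroblasts is a standard way to start direct conversion toward cardiomyocyte-like cells. Cardiac fibroblasts make and remodel the collagen-rich matrix of the heart, sense it through integrins, and can take on a contractile myofibroblast state. They lie beside mural cells, the smooth muscle cells and pericytes that wrap vessels and share part of the contractile programme. They also send growth factors, Wnt modulators, vasoactive peptides and cytokines to their neighbours.

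Promoter sequences of 6 genes whose transcripts were higher under MGT are printed here because each holds letters that are the known binding preference of a delivered factor or of SRF, the partner of Myocd. Each runs 5′ to 3′ from 250 bases before to 50 bases after the start site (RefSeq, GRCm38.p6). Capitals mark every match, on either strand, to the MEF2 box, the CArG box, the GATA site AGATAA or the T-box site GGTGTGA that is named for the gene in the next paragraph.
Xirp2: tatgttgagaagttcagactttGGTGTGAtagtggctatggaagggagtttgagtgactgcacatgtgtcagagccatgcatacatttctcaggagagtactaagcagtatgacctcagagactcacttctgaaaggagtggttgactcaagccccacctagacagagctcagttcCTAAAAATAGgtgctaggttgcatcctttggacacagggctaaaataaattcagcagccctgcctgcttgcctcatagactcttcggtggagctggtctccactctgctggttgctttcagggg
Synpo2l: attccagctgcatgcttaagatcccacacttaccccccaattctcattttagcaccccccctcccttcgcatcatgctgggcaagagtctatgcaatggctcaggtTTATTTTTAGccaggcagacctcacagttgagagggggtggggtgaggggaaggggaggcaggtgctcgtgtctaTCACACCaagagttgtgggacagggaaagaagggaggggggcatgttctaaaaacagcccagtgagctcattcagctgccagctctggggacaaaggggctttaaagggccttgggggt
Mybpc3: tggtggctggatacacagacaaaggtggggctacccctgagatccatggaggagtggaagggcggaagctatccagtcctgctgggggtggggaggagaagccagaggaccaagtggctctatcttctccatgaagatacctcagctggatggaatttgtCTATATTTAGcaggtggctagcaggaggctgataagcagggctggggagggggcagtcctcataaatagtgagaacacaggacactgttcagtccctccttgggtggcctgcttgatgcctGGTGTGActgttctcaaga
Smpx: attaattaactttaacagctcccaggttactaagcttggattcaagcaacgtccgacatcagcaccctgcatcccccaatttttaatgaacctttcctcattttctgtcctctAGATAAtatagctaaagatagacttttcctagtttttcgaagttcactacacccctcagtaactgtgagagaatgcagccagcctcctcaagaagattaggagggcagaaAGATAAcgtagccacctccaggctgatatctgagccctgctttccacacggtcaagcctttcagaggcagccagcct
Myl7: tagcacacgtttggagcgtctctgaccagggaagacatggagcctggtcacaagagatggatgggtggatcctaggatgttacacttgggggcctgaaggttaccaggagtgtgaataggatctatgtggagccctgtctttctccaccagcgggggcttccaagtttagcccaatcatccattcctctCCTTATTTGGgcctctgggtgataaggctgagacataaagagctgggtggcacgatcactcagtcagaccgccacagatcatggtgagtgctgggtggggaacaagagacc
Nr4a3: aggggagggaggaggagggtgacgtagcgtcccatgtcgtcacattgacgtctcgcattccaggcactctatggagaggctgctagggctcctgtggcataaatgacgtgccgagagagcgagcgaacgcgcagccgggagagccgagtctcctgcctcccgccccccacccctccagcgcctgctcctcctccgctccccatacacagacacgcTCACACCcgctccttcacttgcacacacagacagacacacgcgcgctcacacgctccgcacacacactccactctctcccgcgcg

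The Xirp2 window (chr2:67445752-67446051, plus strand) holds a MEF2 box that begins 74 bases before the start and a T-box site that begins 228 bases before it. In the Synpo2l window (chr14:20664525-20664824, minus strand) a MEF2 box begins 144 bases and a T-box site 69 bases before the start. Mybpc3 (chr2:91117894-91118193, plus strand) has a MEF2 box 90 bases before the start and a T-box site after it. Smpx (chrX:157698723-157699022, plus strand) has GATA sites 137 and 27 bases before the start, Myl7 (chr11:5898733-5899032, minus strand) a CArG box 61 bases before it, and Nr4a3 (chr4:48045055-48045354, plus strand) a T-box site 35 bases before it. Synpo2l is shown by 1 of its 2 windows. MEF2 and CArG boxes overlapped in none of all windows, and MEF2, T-box or GATA matches overlapped each other in 2. A match is a description of letters and not a binding site. Among the 32851 windows of 27025 genes in the RefSeq table, 1.86% held a MEF2 box, 1.63% a CArG box, 11.2% a GATA site and 3.98% a T-box site. Of the genes called higher by at least 2-fold, 285 of 407 had a window, and of their 366 windows 4.37% held a MEF2 box, 2.73% a CArG box, 7.92% a GATA site and 5.46% a T-box site. Among the windows of genes called lower the shares were 0.953%, 1.59%, 5.08% and 3.07%. For all tested genes they were 1.2%, 1.32%, 6.4% and 3.45%.

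MGT moved many transcripts of 18-month cells by small amounts and a smaller number upward by a large factor. Of the 11940 tested genes, 2252 (18.9%) were called at an adjusted p below 0.05 by edgeR's quasi-likelihood test, 1267 higher (10.6%) and 985 lower (8.25%) in MGT than in LacZ cells. The large changes were mostly upward, with 407 genes (3.41%) called at least 2-fold higher and 36 (0.302%) called at least 2-fold lower. The median log2 change over all tested genes was 0.02. Without LacZ replicate 1 the count was 1278 (765 higher, 513 lower), without LacZ replicate 2 it was 1217 (710 and 507), and without MGT replicate 2 it was 1191 (698 and 493). Replicate numbers without an age refer to 18-month libraries throughout, and where a group is left with 1 library, that library is assumed to vary like the rest. The 4 libraries separated by vector on the first principal component (74.3% of the variance), at 29.1 and 34 for MGT and -30.7 and -32.3 for LacZ. Of the 2252 genes, 1197 were also called at 3 months, 1181 of them in the same direction, which is 53.2% of the 18-month calls and 49.2% of the 2435 calls at 3 months.

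The delivered factors differed in how far they stood above the level of LacZ cells. On the scale of FPKM, which divides by the exon length of the gene, Tbx5 had 51.8 and 63.3 FPKM in MGT cells, against 0.10 and 0.16 FPKM in LacZ cells. Mef2c had 9.54 and 11.4 FPKM in MGT cells, against 0.52 and 0.67 FPKM in LacZ cells, and Gata4, which cardiac fibroblasts already express, had 55.2 and 63.6 FPKM in MGT cells, against 28.8 and 28.8 FPKM in LacZ cells. On this scale Tbx5 and Gata4 had similar values in MGT cells and Mef2c had lower ones. The divisor is the exon length of the gene, which may differ from the length of the vector transcript. The order of the factors in MGT cells therefore cannot be taken as an order of transcript amounts. In LacZ cells Gata4 was already high and Tbx5 was near 0. Reads from the vectors and from the endogenous genes cannot be told apart in these counts.

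Muscle genes that were at or near 0 in LacZ fibroblasts were among the largest rises. Smpx (ENSMUSG00000041476, mm10 chromosome X, 157698910 to 157752591, plus strand), a small stretch-linked muscle protein gene, had 8.57 and 7.79 CPM in MGT cells, against 0 and 0 CPM in LacZ cells. With 260 counts over both MGT libraries and none in LacZ, it was at least 91.2-fold higher in MGT (adjusted p = 1.59e-09), taking 3 counts over the 2 LacZ libraries as the floor. Xirp2 (ENSMUSG00000027022, mm10 chromosome 2, 67173834 to 67526615, plus strand), which ties actin to the intercalated disc, had 219 and 243 CPM in MGT cells, against 0.81 and 0.0619 CPM in LacZ cells. Xirp2 was higher in both MGT libraries than in either LacZ library, a log2 change of 8.99 ± 0.34 (adjusted p = 8.49e-13). Synpo2l, a Z-disc protein gene, had 69.9 and 81 CPM in MGT cells, against 0.289 and 0.372 CPM in LacZ cells, a log2 change of 7.81 ± 0.26 (adjusted p = 9.81e-14). Mybpc3, cardiac myosin-binding protein C, was at least 31.9-fold higher in MGT, with 2.39 and 3.33 CPM in MGT cells, against 0 and 0 CPM in LacZ cells (adjusted p = 7.15e-06). The atrial light chain gene Myl7 had 436 counts over both MGT libraries against 1 over both LacZ libraries, a ratio of 459 (95% counting interval 81.9 to 18160). Myh1, a skeletal myosin heavy chain gene, had 39.2 and 50.3 CPM in MGT cells, against 0.289 and 0.372 CPM in LacZ cells, and its reads may be split with near-identical neighbouring copies. Of 22 tested sarcomere genes 17 were higher and none lower, with a median log2 change of 4.43 (4.37 when genes without counts in LacZ are placed at their bound). Both MGT libraries held the transcripts of each gene named here, and both LacZ libraries had them at or near 0. In the wider list of skeletal muscle regulators and isoforms 6 of 12 tested genes were higher and none lower.

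Channel and neurosecretory genes were among the largest rises too. Hcn4, the pacemaker channel, had 3.78 and 7.1 CPM in MGT cells, against 0 and 0 CPM in LacZ cells and was at least 60.7-fold higher in MGT (adjusted p = 3.98e-07). Dbh, the enzyme that makes noradrenaline, had 2.14 and 2.39 CPM in MGT cells, against 0 and 0 CPM in LacZ cells, at least 25.3-fold higher in MGT (adjusted p = 6.19e-06). The potassium channel gene Kcnc4 had 160 counts over both MGT libraries against 1 over both LacZ libraries, a ratio of 168 (95% counting interval 29.8 to 6691). Gja3, a connexin, had 6.24 and 6.79 CPM in MGT cells, against 1.33 and 0.929 CPM in LacZ cells, a log2 change of 2.51 ± 0.29 (adjusted p = 4.2e-06). These were single members of a list that mostly stayed below the threshold: of 37 ion channel and gap junction genes 6 were higher and 1 was lower. The lower one, the connexin gene Gjc1, measured 23 and 22.8 CPM under MGT against 30.6 and 29.2 CPM under LacZ, a log2 change of -0.39 ± 0.10 (adjusted p = 0.0114), and lost its call without LacZ replicate 1 (-0.36) or MGT replicate 2 (-0.39). Nppa, the atrial natriuretic peptide, had 1.26 and 1.57 CPM in MGT cells, against 0 and 0 CPM in LacZ cells and was at least 15.8-fold higher in MGT (adjusted p = 0.000236), and Nppb, the ventricular one, had 10.8 and 10.6 CPM in MGT cells, against 0.81 and 0.929 CPM in LacZ cells, a log2 change of 3.61 ± 0.35 (adjusted p = 5.46e-07). Among 29 cardiac transcription factor genes 8 were higher and 1 lower, and the 8 became 4 without MGT replicate 2 and 5 without LacZ replicate 2. The lower one, Meis2, measured 29.3 and 33.6 CPM under MGT against 40.5 and 38.1 CPM under LacZ, a log2 change of -0.32 ± 0.11 (adjusted p = 0.038), and lost its call without LacZ replicate 1 (-0.29), LacZ replicate 2 (-0.37) or MGT replicate 1 (-0.24). The SRF coactivator gene Myocd had 2.77 and 4.27 CPM in MGT cells, against 0.289 and 0.495 CPM in LacZ cells, a log2 change of 3.16 ± 0.45 (adjusted p = 6.08e-05). Tbx3, a transcriptional repressor that acts in cells of the conduction system, had 8.95 and 10.9 CPM in MGT cells, against 2.72 and 1.49 CPM in LacZ cells, a log2 change of 2.23 ± 0.24 (adjusted p = 1.6e-06).

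Most smooth muscle contractile genes rose. Of 23 tested, 15 were higher, none was lower and 8 were not called, against 10.6% of all tested genes higher, and the list had a median log2 change of 0.51. Pdlim3 (ENSMUSG00000031636, mm10 chromosome 8, 45885461 to 45919548, plus strand), an actin-associated LIM protein of the Z-disc and of smooth muscle, had 36.2 and 34.3 CPM in MGT cells, against 1.1 and 1.67 CPM in LacZ cells. Pdlim3 was higher in both MGT libraries than in either LacZ library, a log2 change of 4.67 ± 0.25 (adjusted p = 8.2e-11). Mustn1, a small muscle protein, had 149 and 174 CPM in MGT cells, against 12.5 and 12.7 CPM in LacZ cells, a log2 change of 3.68 ± 0.15 (adjusted p = 1.71e-12). Ramp1, the co-receptor for the vasodilator CGRP, had 2.9 and 3.39 CPM in MGT cells, against 0.52 and 0.0619 CPM in LacZ cells, a log2 change of 3.37 ± 0.50 (adjusted p = 8.97e-05). Tpm1, the tropomyosin shared by heart, smooth muscle and fibroblast filaments, was the most abundant gene of the sarcomere list. It was abundant under both vectors with 1564 and 1470 CPM in MGT cells, against 866 and 854 CPM in LacZ cells, a log2 change of 0.82 ± 0.080 (adjusted p = 4.92e-07). No library overlapped between vectors for these 4 genes. Cald1, caldesmon, the most abundant gene of the smooth muscle contractile list, was called higher by less, with a log2 change of 0.24. The Cald1 call was lost with the 18-month libraries alone in the fit and with RLE scaling. It was also lost without LacZ replicate 1 (0.24), LacZ replicate 2 (0.23) or MGT replicate 1 (0.16). Of 20 windows of 18 smooth muscle contractile genes in the promoter table, 2 held a MEF2 box and none a CArG box.

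Pericyte genes did not move as one. Of 24 tested, 6 were higher and 1 lower (median 0.18), and the 6 became 3 without MGT replicate 1 and 3 without LacZ replicate 1. Cspg4 (ENSMUSG00000032911, mm10 chromosome 9, 56865033 to 56899870, plus strand), the NG2 proteoglycan of pericytes and other progenitors, had 59.5 and 72.2 CPM in MGT cells, against 5.2 and 4.09 CPM in LacZ cells. Cspg4 was higher in both MGT libraries than in either LacZ library, a log2 change of 3.82 ± 0.17 (adjusted p = 6.25e-12). Its log2 change differed from that of neonatal cells by 2.96 ± 0.21 (adjusted p = 5.58e-08). Mcam, an adhesion molecule of mural and endothelial cells, had 10.5 and 10.8 CPM in MGT cells, against 5.96 and 6.01 CPM in LacZ cells, a log2 change of 0.83 ± 0.12 (adjusted p = 8.98e-05). Cygb, the cytoglobin of pericytes and stellate cells, had 18.2 and 19.6 CPM under MGT against 24.1 and 27.7 CPM under LacZ and was called lower, a log2 change of -0.45 ± 0.13 (adjusted p = 0.0231), a call lost without LacZ replicate 2 (-0.35), MGT replicate 1 (-0.41) or MGT replicate 2 (-0.52). Pdgfrb, the receptor that recruits pericytes and is shared by fibroblasts, was the most abundant and was not called, at 203 and 226 CPM under MGT against 241 and 281 CPM under LacZ, a log2 change of -0.29 ± 0.10 (adjusted p = 0.0617). These are bulk cultures, so fewer cells of a type and less RNA per cell cannot be told apart here or in any result that follows.

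**Figure D1:**
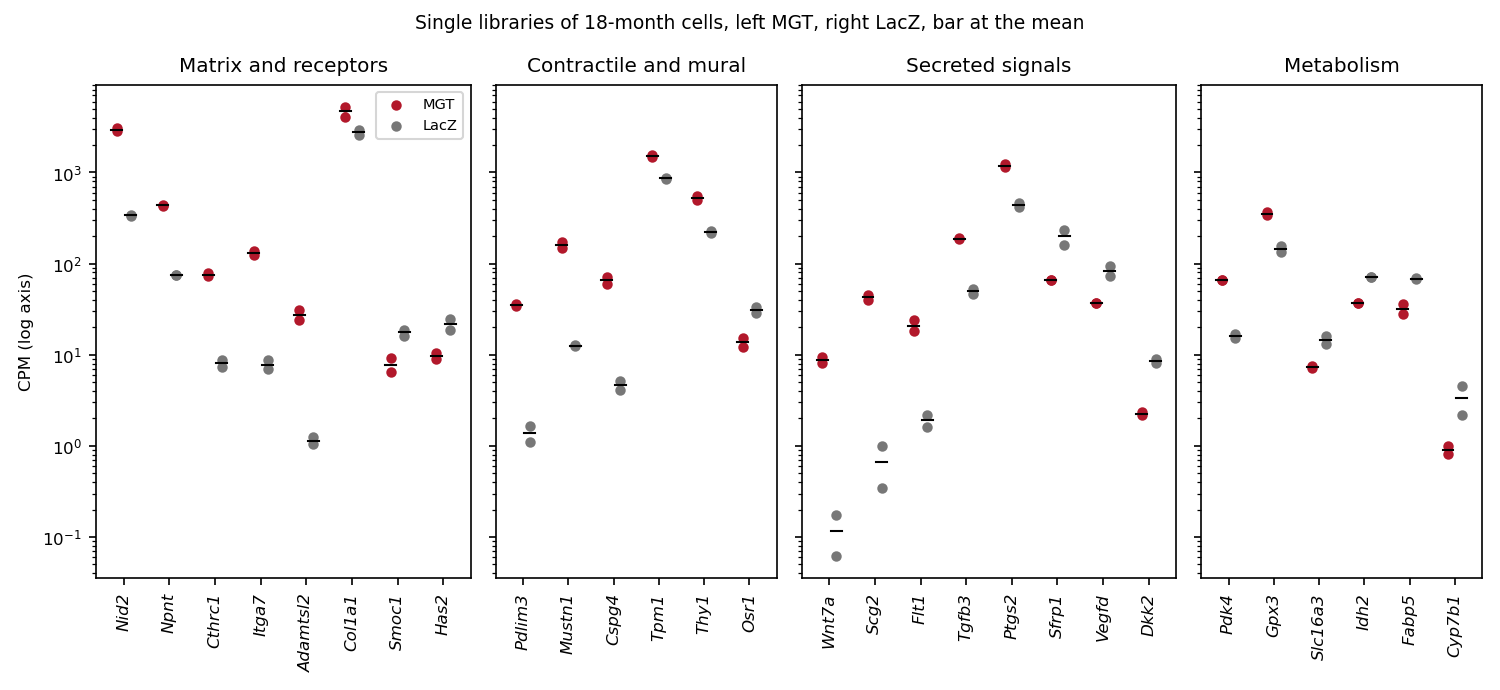
CPM on a log axis in each library of 18-month cells, red for MGT and grey for LacZ, with a bar at the mean of the 2 libraries of a group. The MGT and LacZ points of each gene shown do not overlap, from Wnt7a at 8.13 and 9.43 CPM under MGT against 0.174 and 0.0619 CPM under LacZ to Col1a1 at 4100 and 5232 CPM under MGT against 2592 and 2933 CPM under LacZ.

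Matrix receptors were among the groups with the highest share of rises. Of 20 integrin genes 11 were higher and 1 lower, with a median log2 change of 0.58. Itga7 (ENSMUSG00000025348, mm10 chromosome 10, 128933818 to 128958282, plus strand), the laminin-binding subunit of muscle, had 123 and 139 CPM in MGT cells, against 8.67 and 6.94 CPM in LacZ cells. Itga7 was higher in both MGT libraries than in either LacZ library, a log2 change of 4.07 ± 0.13 (adjusted p = 8.64e-14). Its response differed from that of neonatal cells by 3.01 ± 0.17 (adjusted p = 3e-09), and its difference from 3 months was not called (-0.07 ± 0.19, adjusted p = 0.924). Itgb3, the partner of the vitronectin receptor, had 82.7 and 97.6 CPM in MGT cells, against 29.7 and 27.4 CPM in LacZ cells, a log2 change of 1.66 ± 0.098 (adjusted p = 3.87e-10). Itga6, another laminin-binding subunit, had 67.9 and 58.6 CPM in MGT cells, against 27.2 and 22.7 CPM in LacZ cells, a log2 change of 1.34 ± 0.12 (adjusted p = 1.93e-07). Itgb8, which activates latent TGF-beta, was the 1 lower member at 9.64 and 9.87 CPM under MGT against 13.4 and 18.5 CPM under LacZ, a log2 change of -0.71 ± 0.21 (adjusted p = 0.0226), and its call was lost without LacZ replicate 2 (-0.46), MGT replicate 1 (-0.70) or MGT replicate 2 (-0.74). The gene ontology term integrin complex held 7 of 17 tested genes higher and none lower.

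More genes of the basement membrane, which holds ligands of those receptors, were higher than lower. Of 29 tested basement membrane genes 11 were higher and 3 lower (median 0.30). The 11 became 7 without MGT replicate 2 and 7 without LacZ replicate 1, and the 3 became 1 without MGT replicate 1 and 1 without MGT replicate 2. Nid2 (ENSMUSG00000021806, mm10 chromosome 14, 19751265 to 19811787, plus strand), the nidogen that links laminin to collagen IV, had 2819 and 3077 CPM in MGT cells, against 341 and 335 CPM in LacZ cells. Nid2 was higher in both MGT libraries than in either LacZ library, a log2 change of 3.13 ± 0.14 (adjusted p = 7.21e-12). Npnt, nephronectin, a ligand of integrin alpha-8 beta-1, had 424 and 445 CPM in MGT cells, against 74.2 and 75.1 CPM in LacZ cells, a log2 change of 2.54 ± 0.11 (adjusted p = 3.6e-12), and its change differed from that at 3 months by -0.81 ± 0.15 (adjusted p = 0.00489). Smoc1, a calcium-binding matrix protein that antagonizes BMP, fell to 6.49 and 9.11 CPM in MGT cells, against 16.3 and 18.9 CPM in LacZ cells, a log2 change of -1.17 ± 0.15 (adjusted p = 2.39e-05). Sparc, the collagen IV chaperone of the matrix, was the most abundant, with 4856 and 4789 CPM under MGT against 3901 and 4013 CPM under LacZ, a log2 change of 0.29 ± 0.075 (adjusted p = 0.0117), a call lost without LacZ replicate 1 (0.26) or LacZ replicate 2 (0.31). Under the ontology term basement membrane 21 of 59 genes were higher and 7 lower.

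Collagen genes moved in both directions. Of 31 fibrillar collagen and cross-linking genes 7 were higher and 5 lower, with a median of 0.14, and the 5 became 2 without MGT replicate 1 and 1 without LacZ replicate 2. Col1a1 (ENSMUSG00000001506, mm10 chromosome 11, 94936224 to 94953042, plus strand), the main chain of collagen I, had 4100 and 5232 CPM in MGT cells, against 2592 and 2933 CPM in LacZ cells. Col1a1 was higher in both MGT libraries than in either LacZ library, a log2 change of 0.76 ± 0.10 (adjusted p = 2.66e-05), and its response differed from that of neonatal cells by 0.86 ± 0.14 (adjusted p = 0.00133). The difference from 3 months missed the threshold, at 0.53 ± 0.14 (adjusted p = 0.0555). Col12a1, which coats collagen I fibrils, had 1770 and 1840 CPM in MGT cells, against 953 and 1029 CPM in LacZ cells, a log2 change of 0.87 ± 0.16 (adjusted p = 0.000851). Within collagen VI the chains moved apart: Col6a3 had 38.3 and 49.2 CPM in MGT cells, against 19.6 and 17.3 CPM in LacZ cells, a log2 change of 1.24 ± 0.16 (adjusted p = 2.22e-05). Col6a1 had 117 and 132 CPM in MGT cells, against 151 and 211 CPM in LacZ cells, a log2 change of -0.54 ± 0.12 (adjusted p = 0.00479), a call lost without LacZ replicate 2 (-0.27) or MGT replicate 1 (-0.46). P4ha3, a collagen prolyl hydroxylase subunit, had 13.7 and 14.2 CPM in MGT cells, against 22.7 and 26.6 CPM in LacZ cells, a log2 change of -0.82 ± 0.15 (adjusted p = 0.000561). Per length, on the scale of FPKM, Sparc had 1272 and 1249 FPKM in MGT cells, against 1038 and 1071 FPKM in LacZ cells. Col1a1 had 619.6 and 788 FPKM in MGT cells, against 398 and 452 FPKM in LacZ cells. Bgn, the small proteoglycan biglycan, had 554 and 595 FPKM in MGT cells, against 590 and 628 FPKM in LacZ cells. Bgn was not called (-0.06 ± 0.076, adjusted p = 0.662), and its groups overlapped.

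Matricellular genes, whose products signal from the matrix without building it, were higher in 10 of 28 cases and lower in 2 (median 0.23). Cthrc1, a marker of activated fibroblasts after heart injury, had 78 and 73.7 CPM in MGT cells, against 7.29 and 8.86 CPM in LacZ cells. Cthrc1 was higher in both MGT libraries than in either LacZ library, a log2 change of 3.23 ± 0.14 (adjusted p = 3.6e-12), and differed from the neonatal response by 1.33 ± 0.18 (adjusted p = 0.000145). Ccn4, a Wnt-induced matricellular protein, had 284 and 288 CPM in MGT cells, against 65.8 and 57.3 CPM in LacZ cells, a log2 change of 2.22 ± 0.093 (adjusted p = 3.6e-12), and differed from the neonatal response by 1.67 ± 0.13 (adjusted p = 1.06e-07). Ccn3 went the other way with 4.79 and 4.78 CPM in MGT cells, against 8.15 and 9.1 CPM in LacZ cells, a log2 change of -0.85 ± 0.16 (adjusted p = 0.000962). Thbs1, thrombospondin-1 and the listed gene with the most counts, had 13380 and 12290 CPM in MGT cells, against 9480 and 9301 CPM in LacZ cells, a log2 change of 0.45 ± 0.085 (adjusted p = 0.000984). The groups did not overlap for any of these 4 genes.

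Proteases, proteoglycans and elastic fibre genes each moved in both directions. Of 53 matrix proteases and inhibitors 14 were higher and 7 lower. The 14 became 9 without MGT replicate 2, 9 without LacZ replicate 1 and 9 without LacZ replicate 2, and the 7 became 4 without LacZ replicate 2. Adamtsl2, a microfibril-bound regulator of TGF-beta, had 24.1 and 31 CPM in MGT cells, against 1.04 and 1.24 CPM in LacZ cells. Adamtsl2 was higher in both MGT libraries than in either LacZ library, a log2 change of 4.59 ± 0.24 (adjusted p = 8.2e-11), a response that differed from 3 months by 2.00 ± 0.35 (adjusted p = 0.00354) and from neonatal cells by 3.20 ± 0.30 (adjusted p = 1.91e-06). With limma's voom in place of edgeR the difference from 3 months was not called. The aggrecanase Adamts5 had 365 and 343 CPM in MGT cells, against 562 and 701 CPM in LacZ cells, a log2 change of -0.84 ± 0.096 (adjusted p = 4.61e-06). The plasminogen activator gene Plat had 32.9 and 31.9 CPM in MGT cells, against 62 and 72.7 CPM in LacZ cells, a log2 change of -1.05 ± 0.098 (adjusted p = 2.73e-07). Among 32 proteoglycan and hyaluronan genes 7 were higher and 5 lower. Has2, the main hyaluronan synthase, had 10.5 and 9.05 CPM in MGT cells, against 18.5 and 25 CPM in LacZ cells, a log2 change of -1.15 ± 0.20 (adjusted p = 0.000462). Of 17 elastic fibre genes 5 were higher and 4 lower. The 5 became 2 without MGT replicate 2, 3 without LacZ replicate 1 and 2 without LacZ replicate 2, and the 4 became 2 without LacZ replicate 1 and 2 without LacZ replicate 2. Ltbp2 and Ltbp4 encode proteins of the latent TGF-beta binding family on microfibrils. Ltbp2 had 262 and 349 CPM in MGT cells, against 190 and 194 CPM in LacZ cells, a log2 change of 0.67 ± 0.12 (adjusted p = 0.000589). Ltbp4 had 67.4 and 88.8 CPM in MGT cells, against 51.6 and 52 CPM in LacZ cells, a log2 change of 0.59 ± 0.11 (adjusted p = 0.000799). Fbn1, the fibrillin that builds microfibrils, had 1486 and 1535 CPM under MGT against 1518 and 1671 CPM under LacZ, with overlapping groups and no call (-0.08 ± 0.12, adjusted p = 0.718).

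Myofibroblast genes rose more often than genes at large. Of 30 tested, 18 were higher, 1 lower and 11 not called (median 0.34). Tgfb2 (ENSMUSG00000039239, mm10 chromosome 1, 186622792 to 186705989, minus strand) and Tgfb3, ligands that drive the myofibroblast state, were both raised. Tgfb2 had 121 and 119 CPM in MGT cells, against 29.95 and 33.4 CPM in LacZ cells, a log2 change of 1.92 ± 0.13 (adjusted p = 1.89e-09). Tgfb3 had 189 and 185 CPM in MGT cells, against 46.9 and 52 CPM in LacZ cells, a log2 change of 1.92 ± 0.10 (adjusted p = 8.56e-11), and differed from the neonatal response by 0.92 ± 0.14 (adjusted p = 0.000476). The co-receptor gene Tgfbr3, which presents TGF-beta2 to its receptors, was the 1 lower member with 94.6 and 98 CPM in MGT cells, against 135 and 161 CPM in LacZ cells, a log2 change of -0.62 ± 0.11 (adjusted p = 0.000503). In the wider list of 37 TGF-beta and BMP signals 8 were higher and 7 lower, and the 7 became 3 without MGT replicate 1 and 4 without LacZ replicate 2. Bmp3, an atypical BMP that opposes the others, had 7.56 and 6.73 CPM in MGT cells, against 0 and 0.434 CPM in LacZ cells, a log2 change of 5.04 ± 0.46 (adjusted p = 1.93e-07). Nog, the secreted BMP trap noggin, had 8.13 and 12.5 CPM in MGT cells, against 3.12 and 2.11 CPM in LacZ cells, a log2 change of 1.97 ± 0.30 (adjusted p = 0.000122). The BMP-responsive inhibitors Id1, Id2 and Id3 were all lower, with log2 changes of -0.66 ± 0.094 (adjusted p = 5.71e-05), -0.72 ± 0.097 (adjusted p = 3.02e-05) and -0.57 ± 0.091 (adjusted p = 0.000224). Id1 had 63.9 and 63.7 CPM under MGT against 95.2 and 106 CPM under LacZ, Id2 73.5 and 64.4 CPM under MGT against 110.1 and 118 CPM under LacZ, and Id3 176 and 175 CPM under MGT against 241 and 279 CPM under LacZ, with no overlap between vectors.

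**Figure D2:**
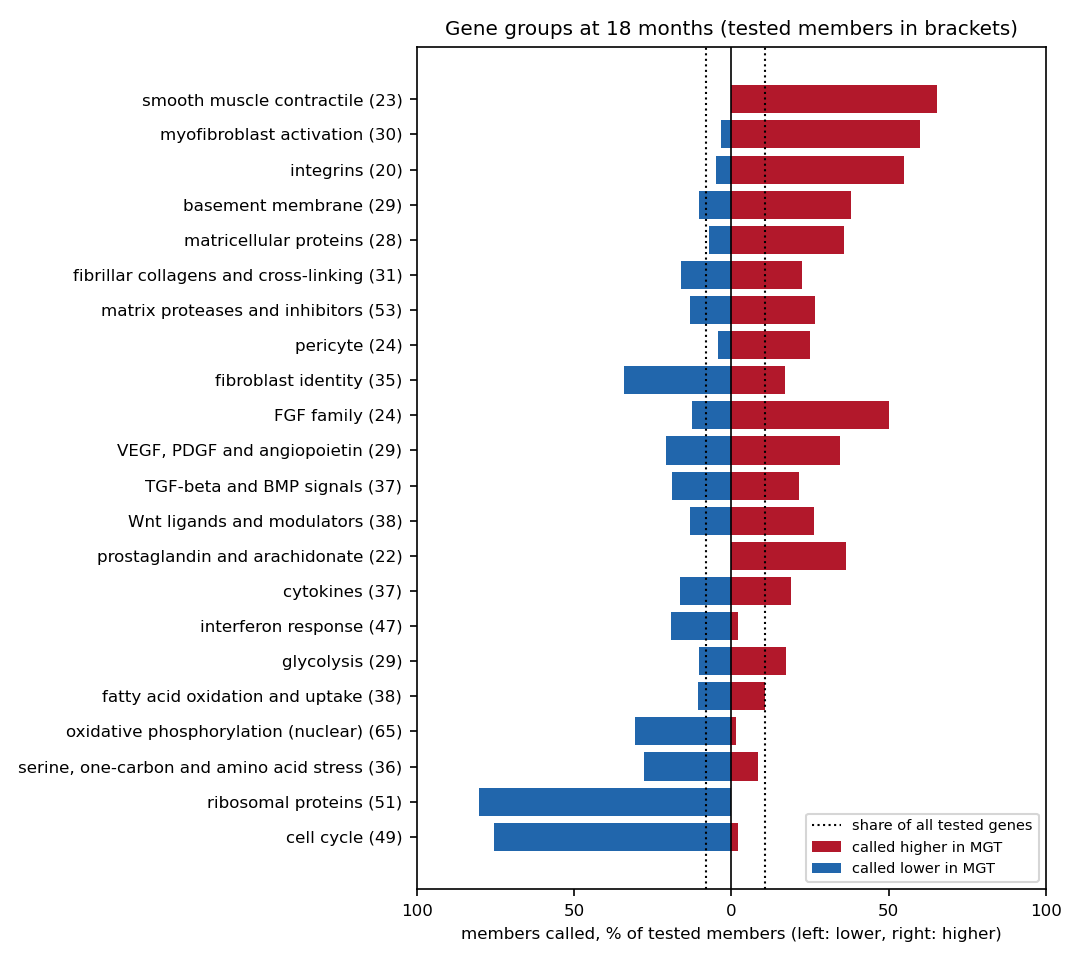
Share of tested members called in each of the gene groups drawn, in percent, higher in MGT to the right in red and lower to the left in blue, with the shares of all tested genes (10.6% higher, 8.25% lower) as dotted lines. Smooth muscle contractile (15 of 23), myofibroblast (18 of 30) and integrin genes (11 of 20) reach farthest right among the groups drawn, which do not include sarcomere genes (17 of 22), and ribosomal protein (41 of 51) and cell cycle genes (37 of 49) farthest left.

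Among genes that define the fibroblast, more were called lower than higher, and 17 were not called. Their median log2 change was -0.05. Their summed CPM was higher in MGT cells, at 17470 and 18760 CPM against 16260 and 17130 CPM in LacZ cells. The most abundant gene of the list was Col1a1, which was higher in MGT cells. Of 35 tested, 12 were lower and 6 higher, against 8.25% and 10.6% of all tested genes, and the 6 became 3 without LacZ replicate 2. Sfrp1 (ENSMUSG00000031548, mm10 chromosome 8, 23411502 to 23449632, plus strand), a secreted Wnt trap, had 66.6 and 66.9 CPM in MGT cells, against 162 and 236 CPM in LacZ cells. Sfrp1 was lower in both MGT libraries than in either LacZ library, a log2 change of -1.57 ± 0.15 (adjusted p = 2.67e-07). Sfrp2 had 1.64 and 1.51 CPM in MGT cells, against 4.16 and 4.95 CPM in LacZ cells, a log2 change of -1.53 ± 0.24 (adjusted p = 0.000175). Osr1, a transcription factor of connective tissue progenitors, had 15.4 and 12.3 CPM in MGT cells, against 33 and 28.7 CPM in LacZ cells, a log2 change of -1.16 ± 0.13 (adjusted p = 4.34e-06). Thy1, a surface glycoprotein of fibroblasts, was one of the higher members, with 500.1 and 548 CPM in MGT cells, against 230.3 and 215 CPM in LacZ cells, a log2 change of 1.24 ± 0.087 (adjusted p = 5.09e-09).

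Wnt genes moved in both directions. Wnt7a, a ligand that acts on muscle stem cells, had 8.13 and 9.43 CPM in MGT cells, against 0.174 and 0.0619 CPM in LacZ cells. Wnt7a was higher in both MGT libraries than in either LacZ library, a log2 change of 6.11 ± 0.38 (adjusted p = 7.13e-10). Rspo3, which amplifies Wnt signals at the receptor, had 4.35 and 3.52 CPM in MGT cells, against 0.867 and 0.619 CPM in LacZ cells, a log2 change of 2.39 ± 0.32 (adjusted p = 2.39e-05). Dkk2 (ENSMUSG00000028031, mm10 chromosome 3, 132085292 to 132180304, plus strand), a secreted Wnt modulator, had 2.21 and 2.33 CPM in MGT cells, against 8.96 and 8.05 CPM in LacZ cells, a log2 change of -1.91 ± 0.22 (adjusted p = 4.97e-06). Dkk2 was one of the genes whose response differed between ages, by -2.24 ± 0.34 (adjusted p = 0.00104) from 3 months, where its log2 change was 0.34, and by -1.84 ± 0.29 (adjusted p = 0.000816) from neonatal cells, where it was -0.06. Of 38 listed Wnt ligands and modulators 10 were higher and 5 lower, and the 10 became 6 without MGT replicate 2, while the 5 became 3 without LacZ replicate 2. Under the ontology term Wnt signaling pathway 12 of 53 were higher and none lower.

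Growth factor genes of the FGF, IGF and EGF families had more members higher than lower. Of 24 FGF family genes 12 were higher and 3 lower (median 0.38). The 12 became 7 without MGT replicate 2, 5 without LacZ replicate 1 and 4 without LacZ replicate 2, and the 3 became 1 without LacZ replicate 2. Fgfr3 had 7.25 and 8.61 CPM in MGT cells, against 3.18 and 2.42 CPM in LacZ cells, a log2 change of 1.5 ± 0.23 (adjusted p = 0.000115). The feedback inhibitor gene Spry2 had 149 and 158 CPM in MGT cells, against 196 and 214 CPM in LacZ cells, a log2 change of -0.42 ± 0.085 (adjusted p = 0.00177). Of 20 IGF axis genes 5 were higher and none lower, and the 5 became 3 without MGT replicate 2, 3 without LacZ replicate 1 and 3 without LacZ replicate 2. The IGF-binding protein gene Igfbp5 had 30.2 and 37.8 CPM in MGT cells, against 3.3 and 5.7 CPM in LacZ cells, a log2 change of 2.93 ± 0.20 (adjusted p = 3.22e-09). Igfbp2 had 34.7 and 43.1 CPM in MGT cells, against 14.2 and 11.6 CPM in LacZ cells, a log2 change of 1.59 ± 0.13 (adjusted p = 6.67e-08). Stc2, a secreted inhibitor of IGF release from its binding proteins, had 35.2 and 43.8 CPM in MGT cells, against 12.3 and 12.2 CPM in LacZ cells, a log2 change of 1.69 ± 0.15 (adjusted p = 1.77e-07). No group overlapped for these genes. Among 8 EGF receptor ligand genes and receptors 3 were higher, with Ereg, epiregulin, at 826 and 712 CPM in MGT cells, against 506 and 477 CPM in LacZ cells and a log2 change of 0.65 ± 0.083 (adjusted p = 1.57e-05), and the receptor Egfr at 187 and 180 CPM in MGT cells, against 121 and 125 CPM in LacZ cells and a log2 change of 0.58 ± 0.090 (adjusted p = 0.000156).

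Angiogenic signals changed on the side of both ligands and receptors. Of 29 VEGF, PDGF and angiopoietin genes 10 were higher and 6 lower. Flt1 (ENSMUSG00000029648, mm10 chromosome 5, 147561604 to 147726011, minus strand), a VEGF receptor usually found on endothelium, had 23.8 and 18 CPM in MGT cells, against 2.2 and 1.61 CPM in LacZ cells. Flt1 was higher in both MGT libraries than in either LacZ library, a log2 change of 3.45 ± 0.19 (adjusted p = 1.36e-10). The response differed from neonatal cells by 2.35 ± 0.23 (adjusted p = 3.6e-06) and from 3 months by -1.82 ± 0.32 (adjusted p = 0.00351), the last a call lost without LacZ replicate 1 (-1.58). In neonatal cells Flt1 had 2129 and 2086 counts under MGT against 952 and 1133 under LacZ. In 18-month cells it had 378 and 287 under MGT against 38 and 26 under LacZ, so its level under MGT stayed below that of neonatal LacZ cells. Its ligand Pgf, placental growth factor, had 55.7 and 55.4 CPM in MGT cells, against 9.2 and 8.48 CPM in LacZ cells, a log2 change of 2.65 ± 0.12 (adjusted p = 6.25e-12). Pdgfb, which recruits pericytes, had 3.15 and 3.58 CPM in MGT cells, against 0.636 and 0.619 CPM in LacZ cells, a log2 change of 2.41 ± 0.37 (adjusted p = 0.000112). Vegfd, a lymphatic growth factor, fell, with 36.7 and 36.6 CPM in MGT cells, against 73.3 and 93.8 CPM in LacZ cells, a log2 change of -1.19 ± 0.11 (adjusted p = 2.22e-07). The fibroblast receptor Pdgfra, the most abundant of the list, fell with 449.5 and 459 CPM in MGT cells, against 608 and 686 CPM in LacZ cells, a log2 change of -0.51 ± 0.089 (adjusted p = 0.000446). The ontology term angiogenesis held 21 of 88 genes higher and 8 lower.

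Peptides, chemokines and cytokines followed no single direction. Of 29 peptide hormone and vasoactive genes 8 were higher and 5 lower, and the 5 became 3 without MGT replicate 1, 3 without MGT replicate 2 and 3 without LacZ replicate 2. Scg2, a secretory granule protein that is cut into peptides, had 39.95 and 45.8 CPM in MGT cells, against 0.347 and 0.991 CPM in LacZ cells, a log2 change of 6.01 ± 0.26 (adjusted p = 4.55e-12). The vasoactive peptide genes Edn1, endothelin-1, Adm, adrenomedullin, and Apln, apelin, were all lower. Edn1 had 20.1 and 18 CPM in MGT cells, against 33 and 41.6 CPM in LacZ cells, a log2 change of -0.97 ± 0.12 (adjusted p = 1.44e-05). Adm had 201 and 192 CPM in MGT cells, against 290.1 and 313 CPM in LacZ cells, a log2 change of -0.62 ± 0.082 (adjusted p = 2.43e-05). Apln had 12.7 and 9.18 CPM in MGT cells, against 26 and 22.5 CPM in LacZ cells, a log2 change of -1.15 ± 0.14 (adjusted p = 5.57e-06). Of 22 chemokine genes and receptors 4 were higher and 2 lower, the 2 becoming 1 without any one of the 4 libraries. The scavenging receptor Ackr3 had 68.8 and 75.6 CPM in MGT cells, against 14.1 and 16.5 CPM in LacZ cells, a log2 change of 2.24 ± 0.17 (adjusted p = 9.61e-09). The neutrophil attractant Cxcl5 had 1165 and 1129 CPM in MGT cells, against 1813 and 1950 CPM in LacZ cells, a log2 change of -0.71 ± 0.14 (adjusted p = 0.00108). Of 37 cytokine genes 7 were higher and 6 lower, and the 6 became 3 without MGT replicate 2 and 3 without LacZ replicate 2. Il11, a cytokine of fibroblast activation, had 15.6 and 19.2 CPM in MGT cells, against 5.03 and 5.88 CPM in LacZ cells, a log2 change of 1.67 ± 0.20 (adjusted p = 9.5e-06). The macrophage growth factor Csf1, the most abundant, had 3738 and 4000 CPM under MGT against 3945 and 3849 CPM under LacZ with overlapping groups and no call (-0.01 ± 0.078, adjusted p = 0.951).

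Prostaglandin genes rose in part, and guidance cues were called in both directions. Of all tested genes 10.6% were higher and 8.25% lower, and the count of lower guidance genes lay near that share. Of 22 prostaglandin and arachidonate genes 8 were higher and none lower (median 0.41), and the 8 became 5 without MGT replicate 2 and 5 without LacZ replicate 1. Ptgs2 (ENSMUSG00000032487, mm10 chromosome 1, 150100031 to 150108227, plus strand), the inducible cyclooxygenase, had 1224 and 1151 CPM in MGT cells, against 461 and 421 CPM in LacZ cells. Ptgs2 was higher in both MGT libraries than in either LacZ library, a log2 change of 1.43 ± 0.11 (adjusted p = 2.09e-08), and the response differed from that at 3 months, where the log2 change was 2.71, by -1.28 ± 0.16 (adjusted p = 0.000213). Ptgfr, the receptor of prostaglandin F, had 3.72 and 3.08 CPM in MGT cells, against 0.347 and 0.929 CPM in LacZ cells, a log2 change of 2.42 ± 0.37 (adjusted p = 0.000112). Of 49 axon guidance and neurotrophic genes 9 were higher and 5 lower, and the 5 became 2 without MGT replicate 1, 1 without MGT replicate 2, 2 without LacZ replicate 1 and 2 without LacZ replicate 2. Sema3d, a repulsive cue that patterns vessels in the embryo, had 96.7 and 81.3 CPM in MGT cells, against 23.2 and 27.9 CPM in LacZ cells, a log2 change of 1.80 ± 0.12 (adjusted p = 3.62e-09), and differed from the neonatal response, where the log2 change was -0.35, by 2.15 ± 0.17 (adjusted p = 1.5e-07). Sema3f had 1.01 and 0.503 CPM in MGT cells, against 2.49 and 3.34 CPM in LacZ cells, a log2 change of -1.93 ± 0.31 (adjusted p = 0.000197). Ntn4, a netrin of basement membranes, had 269 and 283 CPM in MGT cells, against 95.9 and 90.2 CPM in LacZ cells, a log2 change of 1.57 ± 0.093 (adjusted p = 4.36e-10).

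Transcripts of the cytosolic ribosome were lower almost throughout. Of 51 tested ribosomal protein genes, taken by symbol after the ontology terms had been ranked, 41 were lower, none was higher and 10 were not called. Their median log2 change was -0.41, against 0.02 over all tested genes, and 49 of 51 were below 0. Summed over the genes, ribosomal proteins took 13030 and 13390 CPM in MGT cells, against 18030 and 17130 CPM in LacZ cells, so each LacZ library lay above each MGT library. The count of lower genes was 19 without LacZ replicate 1, 34 without LacZ replicate 2, 25 without MGT replicate 1 and 31 without MGT replicate 2. At 3 months the sums were 16700 and 16930 CPM for MGT and 17620 and 21500 CPM for LacZ. The difference of the responses at 18 and 3 months was called in none of the 51 genes. Many of these genes have processed copies in the genome, and how the counting treated reads that match several copies is not given in the sources used here. Eef1a1, the elongation factor that brings aminoacyl-tRNA to the ribosome and no ribosomal protein itself, had 5999 and 5228 CPM in MGT cells, against 7138 and 7102 CPM in LacZ cells, a log2 change of -0.34 ± 0.082 (adjusted p = 0.00645), a call lost without MGT replicate 2 (-0.26). Eef1a1 was chosen after its values were seen.

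Muscle and matrix receptor terms stood at the top of the deposited gene ontology annotation for rises, and ribosome terms for falls, when terms were ranked by their share of called genes. Among 787 terms with 15 to 500 tested genes, the highest shares of genes called higher were in structural constituent of muscle (14 of 22), costamere (8 of 16) and ossification (10 of 21). Z disc (28 of 61), integrin complex, neuromuscular process controlling balance (7 of 17), intermediate filament (9 of 22) and neuromuscular junction (15 of 37) followed. Ossification fell to 5 without LacZ replicate 1 and 6 without LacZ replicate 2. The highest shares called lower were in viral transcription (12 of 16), cytosolic small ribosomal subunit (19 of 27), translational termination (16 of 23), cytosolic large ribosomal subunit (19 of 32) and translational elongation (20 of 36). U12-type spliceosomal complex (11 of 21), translational initiation (24 of 49) and the targeting of ribosomes to membranes (8 of 17) completed the 8. Of the 12 lower genes under viral transcription 11 were ribosomal proteins, so its name does not describe them. The 11 under the spliceosomal term held none and included the core snRNP genes Snrpb, Snrpd2, Snrpd3, Snrpf and Snrpg, whose products are shared by both spliceosomes. Leaving out LacZ replicate 1 reduced small ribosomal subunit to 9, large ribosomal subunit to 8 and translational initiation to 9. Without MGT replicate 1 the large subunit had 9 lower genes and initiation 13, and without MGT replicate 2 initiation had 11. Terms of 20.3% of genes in the biological process field break off at 255 characters in the deposited table, so counts per term are lower bounds.

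**Figure D3:**
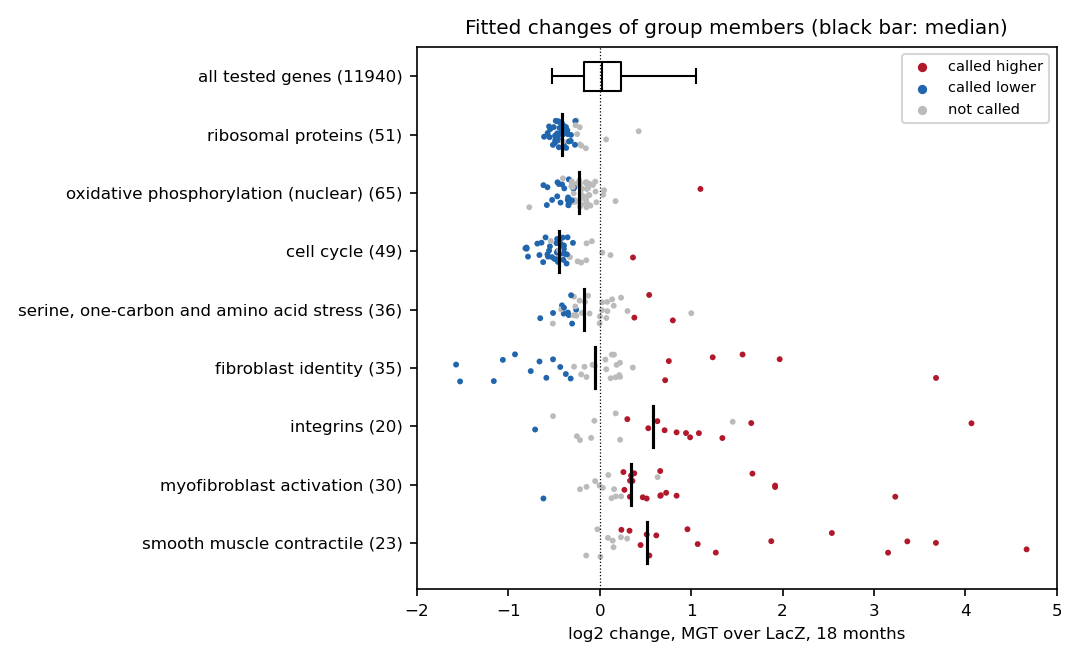
Fitted log2 change of MGT over LacZ in 18-month cells for each tested member of 8 gene groups, red for called higher, blue for called lower and grey for not called, with a black bar at the median. The box for all tested genes spans the quartiles (-0.17 to 0.23) with whiskers at the 5th and 95th percentiles. Ribosomal protein genes cluster around -0.41, whereas smooth muscle genes spread up to 4.67 (Pdlim3).

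Some nuclear genes of the respiratory chain were lower, by small amounts. Of 65 tested oxidative phosphorylation genes 20 were lower and 1 higher (median -0.22), and the 20 became 11 without MGT replicate 1, 13 without MGT replicate 2, 6 without LacZ replicate 1 and 12 without LacZ replicate 2. Ndufa5 of complex I had 22.9 and 23.1 CPM in MGT cells, against 35.5 and 33.4 CPM in LacZ cells, a log2 change of -0.58 ± 0.11 (adjusted p = 0.0011). Uqcr11 of complex III had 35.9 and 35.4 CPM in MGT cells, against 55.1 and 50.9 CPM in LacZ cells, a log2 change of -0.57 ± 0.11 (adjusted p = 0.00104). Atp5k of the ATP synthase had 19.3 and 21.9 CPM in MGT cells, against 33.4 and 29.8 CPM in LacZ cells, a log2 change of -0.62 ± 0.11 (adjusted p = 0.000516). Each of the 3 was lower in both MGT libraries than in either LacZ library. Atp5b, the abundant catalytic subunit of that enzyme, had 994 and 1018 CPM under MGT against 1125 and 1048 CPM under LacZ and was not called (-0.11 ± 0.079, adjusted p = 0.364). The higher gene, the testis isoform Cox6b2, had 2.58 and 3.21 CPM under MGT against 1.45 and 1.24 CPM under LacZ, a log2 change of 1.10 ± 0.31 (adjusted p = 0.0185), a call lost without LacZ replicate 1 (1.21), LacZ replicate 2 (1.00) or MGT replicate 2 (0.93). The citric acid cycle had 2 of 29 genes lower and none higher, 1 without any one of the 4 libraries. Idh2, the mitochondrial NADP isocitrate dehydrogenase, had 36.8 and 37.2 CPM in MGT cells, against 71.5 and 71.2 CPM in LacZ cells, a log2 change of -0.95 ± 0.093 (adjusted p = 5.91e-07), a response that differed from neonatal cells by -1.04 ± 0.13 (adjusted p = 6.04e-05).

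Fuel choice genes changed singly rather than as lists. Of 29 glycolysis genes 5 were higher and 3 lower, and the 5 became 3 without MGT replicate 1, 2 without MGT replicate 2 and 2 without LacZ replicate 1. Pdk4, the kinase that shuts pyruvate out of the mitochondrion, had 66 and 65.4 CPM in MGT cells, against 16.9 and 15.3 CPM in LacZ cells, a log2 change of 2.03 ± 0.13 (adjusted p = 9.37e-10). The lactate exporter gene Slc16a3 had 7.5 and 7.1 CPM in MGT cells, against 13.2 and 15.9 CPM in LacZ cells, a log2 change of -0.99 ± 0.14 (adjusted p = 5.24e-05). Of 38 fatty acid genes 4 were higher and 4 lower. The higher 4 became 2 without MGT replicate 1, 2 without MGT replicate 2 and 2 without LacZ replicate 1, and the lower 4 became 1 without MGT replicate 2, 1 without LacZ replicate 1 and 2 without LacZ replicate 2. Fabp5, a fatty acid carrier, had 36 and 27.8 CPM in MGT cells, against 67.3 and 69.2 CPM in LacZ cells, a log2 change of -1.10 ± 0.12 (adjusted p = 3.77e-06). Angptl4, a secreted lipase inhibitor, had 122 and 134 CPM in MGT cells, against 93.6 and 76.5 CPM in LacZ cells, a log2 change of 0.59 ± 0.11 (adjusted p = 0.000827). Lpl, lipoprotein lipase, had 203 and 172 CPM in MGT cells, against 123 and 139 CPM in LacZ cells, a log2 change of 0.52 ± 0.12 (adjusted p = 0.00518), a call lost without LacZ replicate 1 (0.42) or MGT replicate 1 (0.38). The Lpl response nevertheless differed from 3 months, where its log2 change was -1.16, by 1.68 ± 0.17 (adjusted p = 2.91e-05). Gamt, the last enzyme of creatine synthesis, had 2.02 and 2.26 CPM in MGT cells, against 6.01 and 5.51 CPM in LacZ cells, a log2 change of -1.43 ± 0.25 (adjusted p = 0.000543).

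Among anabolic and redox genes, serine and one-carbon enzymes were more often lower. Of 36 genes of serine, one-carbon and amino acid stress 10 were lower and 3 higher (median -0.18). The 10 became 6 without MGT replicate 2, 3 without LacZ replicate 1 and 4 without LacZ replicate 2, and the 3 became 1 without MGT replicate 1 and 1 without LacZ replicate 2. Shmt1, the cytosolic serine hydroxymethyltransferase, had 12.7 and 13.3 CPM in MGT cells, against 19.5 and 21.4 CPM in LacZ cells, a log2 change of -0.65 ± 0.14 (adjusted p = 0.00228). Of 32 glutathione and NRF2 genes 7 were higher and 3 lower, and the 7 became 4 without MGT replicate 2 and 3 without LacZ replicate 2. Gpx3, the secreted glutathione peroxidase, had 343 and 365 CPM in MGT cells, against 133 and 155 CPM in LacZ cells, a log2 change of 1.30 ± 0.11 (adjusted p = 8.09e-08), a response that differed from 3 months by 0.94 ± 0.15 (adjusted p = 0.0021). Mgst1, a membrane glutathione transferase, had 85.7 and 77.4 CPM in MGT cells, against 108 and 119 CPM in LacZ cells, a log2 change of -0.48 ± 0.091 (adjusted p = 0.00101). In retinoid and steroid metabolism 2 of 27 were higher and 4 lower, and the 4 became 1 without MGT replicate 2, 2 without LacZ replicate 1 and 1 without LacZ replicate 2. Star, which moves cholesterol into mitochondria for steroid synthesis, had 16.8 and 17.2 CPM in MGT cells, against 7.34 and 7.93 CPM in LacZ cells, a log2 change of 1.15 ± 0.15 (adjusted p = 2.5e-05). Cyp7b1, the oxysterol hydroxylase, had 1.01 and 0.817 CPM in MGT cells, against 2.2 and 4.58 CPM in LacZ cells, a log2 change of -1.87 ± 0.37 (adjusted p = 0.00128). No groups overlapped for these genes.

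Most cell cycle genes were lower, senescence markers were called in both directions, and few immediate early genes were called. Of 49 cell cycle genes 37 were lower and 1 higher (median -0.45). Birc5, the survivin of dividing cells, had 45.5 and 40.7 CPM in MGT cells, against 75.8 and 75.7 CPM in LacZ cells, a log2 change of -0.81 ± 0.10 (adjusted p = 9.55e-06). Cdk6, the higher one, had 149 and 145 CPM under MGT against 113 and 115 CPM under LacZ, a log2 change of 0.36 ± 0.098 (adjusted p = 0.0134), and its call was lost without LacZ replicate 1 (0.34), LacZ replicate 2 (0.38), MGT replicate 1 (0.34) or MGT replicate 2 (0.37). Of 21 senescence markers 4 were higher and 5 lower, and the 4 became 2 without LacZ replicate 1 and 2 without LacZ replicate 2, and the 5 became 3 without MGT replicate 2 and 3 without LacZ replicate 1. Both counts lay above the shares of all tested genes, 10.6% higher and 8.25% lower. The largest called rise among the markers was Igfbp5 (2.925), and the largest called falls were Cdkn1b (-0.647), Hmgb2 (-0.631) and Lmnb1 (-0.473). Plaur, the urokinase receptor, had 143 and 142 CPM in MGT cells, against 110.1 and 90.5 CPM in LacZ cells, a log2 change of 0.50 ± 0.095 (adjusted p = 0.00093). Cdkn2a, which encodes p16 and p19Arf, had 14.9 and 15.9 CPM under MGT against 19.5 and 15.4 CPM under LacZ with overlapping groups and no call (-0.18 ± 0.16, adjusted p = 0.502). Cdkn1a, the p21 inhibitor, had 665 and 696 CPM under MGT against 588 and 579 CPM under LacZ, a log2 change of 0.22 ± 0.072 (adjusted p = 0.0388). The Cdkn1a call was lost without LacZ replicate 1 (0.23), LacZ replicate 2 (0.21), MGT replicate 1 (0.25) or MGT replicate 2 (0.18), and in some settings that left out no library, among them with the other ages left out of the fit and with no filter on low counts. Of 30 NR4A and immediate early genes 3 were higher and 1 lower, and the 1 became 2 without LacZ replicate 1 and 2 without MGT replicate 1. Nr4a3, the orphan nuclear receptor in the title of the series, had 22.7 and 32.3 CPM in MGT cells, against 8.44 and 11.8 CPM in LacZ cells, a log2 change of 1.45 ± 0.18 (adjusted p = 1.22e-05).

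Muscle chaperone genes were among the rises, and the unfolded protein response and p53 lists held some called genes in each direction. Of all tested genes 10.6% were higher and 8.25% lower. The unfolded protein response counts and the count of lower p53 targets lay near these shares. Of 25 heat shock and muscle chaperone genes 6 were higher and none lower. Cryab, alpha-B crystallin, had 628 and 679 CPM in MGT cells, against 309 and 309 CPM in LacZ cells, a log2 change of 1.08 ± 0.093 (adjusted p = 8.87e-08). Hspb7, the cardiac small heat shock protein, had 148 and 165 CPM in MGT cells, against 68.2 and 61.2 CPM in LacZ cells, a log2 change of 1.27 ± 0.089 (adjusted p = 4.53e-09). Hsp90ab1, the abundant cytosolic chaperone, had 2067 and 1955 CPM under MGT against 2158 and 2109 CPM under LacZ and was not called (-0.09 ± 0.070, adjusted p = 0.444). Of 29 unfolded protein response genes 4 were higher and 2 lower. The 4 became 2 without MGT replicate 2 and 2 without LacZ replicate 2, and the 2 became 4 without MGT replicate 1, 1 without MGT replicate 2 and 0 without LacZ replicate 1. Ero1l, the oxidase that makes disulfide bonds in the endoplasmic reticulum, had 208 and 198 CPM in MGT cells, against 111 and 102 CPM in LacZ cells, a log2 change of 0.93 ± 0.086 (adjusted p = 2.55e-07). Of 28 p53 targets 7 were higher and 2 lower. The 7 became 4 without MGT replicate 1, 4 without LacZ replicate 1 and 4 without LacZ replicate 2, and the 2 became 0 without MGT replicate 1, 0 without LacZ replicate 1 and 1 without LacZ replicate 2. Notch genes (1 higher and 1 lower of 16), hedgehog genes (0 and 1 of 10), glycogen and creatine genes (2 and 2 of 26) and regulators of mitochondrial number (1 and 1 of 26) lay near or below the shares of all tested genes, and each of these counts moved by at most 1 when a library was left out. Of 12 ubiquitin ligase and muscle proteolysis genes 4 were higher and none lower, and Cish, a feedback inhibitor of cytokine receptors, had 26.2 and 25.3 CPM in MGT cells, against 9.54 and 7.93 CPM in LacZ cells, a log2 change of 1.56 ± 0.12 (adjusted p = 2.31e-08).

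The response at 18 months was set against the responses at the other ages through the interaction terms of the fit, both of which use the same 18-month libraries. Cells of different ages came from different animals, and the labels name no preparation or batch. The effect of age cannot be told apart from that of the preparation of the cells. Of 11940 genes 284 (2.38%) differed from the 3-month response, 201 higher (1.68%) and 83 lower (0.695%). The 3-month LacZ libraries differed from each other more than any other pair, with a chi-square of 22.2 per degree of freedom against 4.25 for LacZ and 7.74 for MGT at 18 months. The count of 284 was 705 without LacZ 3-month replicate 1, 815 without LacZ 3-month replicate 2, 114 without MGT 3-month replicate 1 and 173 without MGT 3-month replicate 2. It was 110 without LacZ replicate 1 and 129 without MGT replicate 2. From the neonatal response 351 genes (2.94%) differed, 277 higher (2.32%) and 74 lower (0.62%). That count was 222 without LacZ replicate 1, 231 without LacZ replicate 2, 186 without MGT replicate 2, 193 without LacZ neonatal replicate 1 and 202 without LacZ neonatal replicate 2.

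Interferon-stimulated genes were among those whose response differed from 3 months. At 18 months 9 of 47 were lower and 1 higher (median -0.26), whereas 46 of 47 were lower at 3 months (median -1.12) and 29 in neonatal cells (median -0.50). The difference of the responses was called in 19 of 47, all higher at 18 months, against 1.68% of all tested genes. The genes summed to 1082 and 1164 CPM in MGT cells, against 1120 and 1449 CPM in LacZ cells of 18 months, where the groups overlapped. At 3 months they summed to 4111 and 4051 CPM for MGT and 8314 and 8065 CPM for LacZ. The 9 lower genes became 16 without LacZ replicate 1 and 0 without LacZ replicate 2, 0 without MGT replicate 1 and 1 without MGT replicate 2. The 19 became 29 without either LacZ 3-month library, 11 without MGT 3-month replicate 1, 8 without LacZ replicate 1, 32 without LacZ replicate 2, 11 without MGT replicate 1 and 7 without MGT replicate 2. Rsad2, viperin, an antiviral enzyme, had 7.06 and 8.67 CPM under MGT against 4.63 and 8.61 CPM under LacZ, with overlapping groups and no call (0.26 ± 0.24, adjusted p = 0.507), against a log2 change of -2.39 at 3 months, a difference of 2.64 ± 0.29 (adjusted p = 9.38e-05). Uba7, the enzyme that activates the ubiquitin-like ISG15, was the 1 gene higher at 18 months, with 22.9 and 27.2 CPM in MGT cells, against 14.1 and 16.3 CPM in LacZ cells, a log2 change of 0.72 ± 0.14 (adjusted p = 0.000986), and differed from 3 months by 1.16 ± 0.18 (adjusted p = 0.0013). Of 44 promoter windows of the listed genes, 16 (36.4%) held the interferon-stimulated response element GAAANNGAAA on either strand, against 3.44% of all windows. Windows of genes called lower at 18 months held it in 4.77% and those of genes called higher in 1.76%.

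Some sterol and complement genes differed from 3 months in the same direction. Of 39 cholesterol and lipid synthesis genes 5 were higher and 3 lower at 18 months, where 10.6% and 8.25% of all tested genes were. At 3 months 1 was higher and 20 were lower. The difference was called in 14, all higher at 18 months, against 1.68% of all tested genes. The 5 became 2 without MGT replicate 2, 2 without LacZ replicate 1 and 3 without LacZ replicate 2. The 14 became 6 without MGT 3-month replicate 1, 7 without MGT 3-month replicate 2, 6 without LacZ replicate 1 and 7 without MGT replicate 2. Abca1, which exports cholesterol from the cell, had 107 and 103 CPM in MGT cells, against 63 and 62.9 CPM in LacZ cells, a log2 change of 0.74 ± 0.15 (adjusted p = 0.00146). Cyp1b1, a sterol and oestrogen hydroxylase, was the most abundant and was lower, with 719 and 699.8 CPM in MGT cells, against 994 and 1171 CPM in LacZ cells, a log2 change of -0.61 ± 0.098 (adjusted p = 0.000219). Of 26 complement and antigen presentation genes 5 were higher and 1 lower, against 1 and 10 at 3 months. The difference was called in 8, all higher at 18 months, against 1.68% of all tested genes. The 8 became 5 without MGT 3-month replicate 1 and 5 without LacZ replicate 1. C3, the central complement component, had 689 and 745 CPM in MGT cells, against 475 and 514 CPM in LacZ cells, a log2 change of 0.54 ± 0.11 (adjusted p = 0.00176), and differed from the neonatal response by 0.84 ± 0.16 (adjusted p = 0.00357). Tapbp, which loads peptides on class I molecules, had 98.8 and 108 CPM in MGT cells, against 72.6 and 69.6 CPM in LacZ cells, a log2 change of 0.54 ± 0.089 (adjusted p = 0.000256), and differed from 3 months by 0.88 ± 0.12 (adjusted p = 0.000657).

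**Figure D4:**
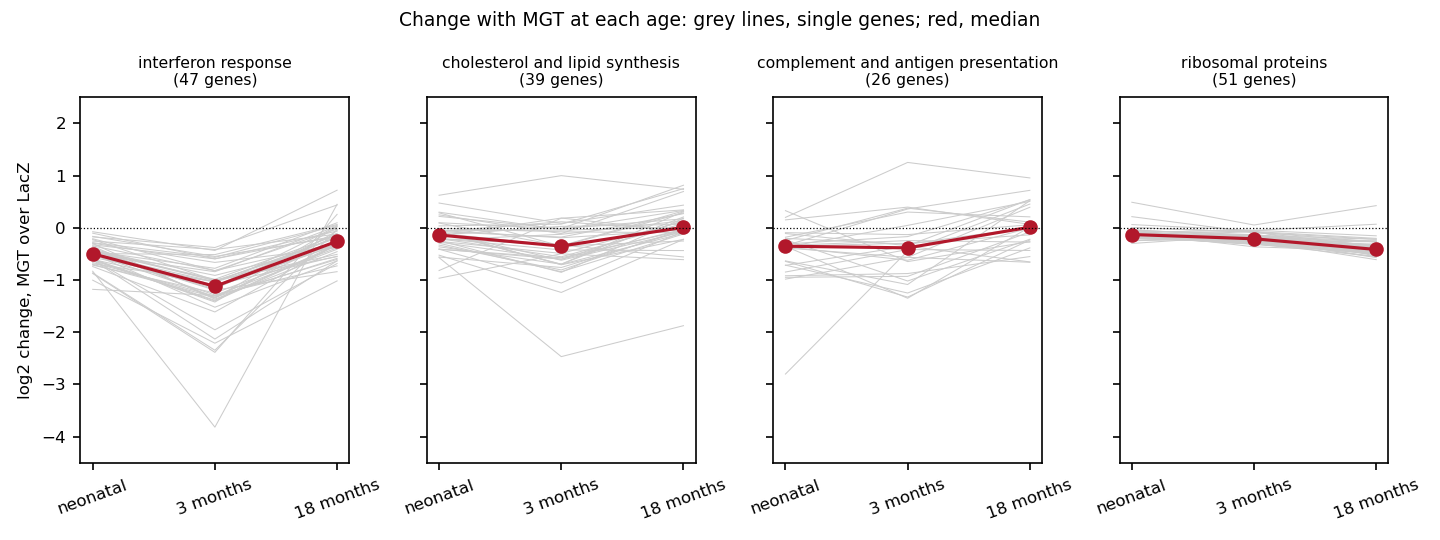
Log2 change of MGT over LacZ at each age, from neonatal to 18 months, for the tested genes of 4 groups, with a grey line for each gene and red points at the median. The interferon median lies at -1.12 at 3 months and -0.26 at 18 months, while ribosomal protein genes lie closest to 0 in neonatal cells and at -0.41 at 18 months. The difference from 3 months was called in none of the 51 ribosomal protein genes.

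Markers of other cell types were measured because these cultures are bulk samples. The fibroblast transcription factor gene Tcf21 was present in every library, with 55.6 and 44.4 CPM in MGT cells, against 78.5 and 90.5 CPM in LacZ cells, and so were Col1a1, Pdgfra and Thy1. All 14 lymphocyte and all 6 erythroid genes in the table stayed under 1 CPM in each of the 4 libraries, and 3 of the lymphocyte genes were at 0. The genes under 1 CPM numbered 4 of 21 for macrophages, 6 of 20 for endothelium, 7 of 18 for mesothelium, 7 of 12 for Schwann cells, 6 of 12 for adipocytes and 12 of 18 for mature cardiomyocytes. Ptprc, the leukocyte surface phosphatase, had 5.92 and 5.66 CPM under MGT against 4.16 and 4.09 CPM under LacZ and was not called (0.49 ± 0.20, adjusted p = 0.0983), and Adgre1, the macrophage marker F4/80, had 36.3 and 29.4 CPM under MGT against 21.8 and 22.5 CPM under LacZ, a log2 change of 0.57 ± 0.15 (adjusted p = 0.0119), a call lost without LacZ replicate 1 (0.54), LacZ replicate 2 (0.59) or MGT replicate 1 (0.40). Pecam1, which defines endothelium, had 3.72 and 3.52 CPM under MGT against 1.68 and 2.35 CPM under LacZ, a log2 change of 0.85 ± 0.28 (adjusted p = 0.0398), a call lost without LacZ replicate 1 (0.61), LacZ replicate 2 (1.11), MGT replicate 1 (0.80) or MGT replicate 2 (0.88). Sox10, which defines Schwann cells, was at 0 in all 4 libraries, and Myh6, the heavy chain of mature heart muscle, had at most 0.126 CPM. Of 9 Schwann cell genes 1 was higher and 2 were lower, of 6 adipocyte genes 1 was higher, and of 10 genes of mature cardiomyocytes 5 were higher and none lower. Without MGT replicate 1 the Schwann counts were 0 and 1, and the adipocyte count was 0. Schwann cell genes summed to 257.6 and 234.6 CPM in MGT cells, against 317.1 and 318.9 CPM in LacZ cells, adipocyte genes to 241 and 210.2 CPM against 158.5 and 168.4 CPM, and cardiomyocyte genes to 683.4 and 702.5 CPM against 620.9 and 604.7 CPM. Macrophage markers had 4 of 17 higher and none lower, and summed to 270.1 and 252.4 CPM in MGT cells, against 223.2 and 212.7 CPM in LacZ cells. The 4 became 2 without MGT replicate 2, 2 without LacZ replicate 1 and 1 without LacZ replicate 2. Endothelial markers had 5 of 17 higher and none lower, with sums of 589.4 and 714.7 CPM in MGT cells, against 517.8 and 528.3 CPM in LacZ cells. The 5 became 3 without MGT replicate 1, 3 without MGT replicate 2 and 2 without LacZ replicate 1. Cd93, a receptor of endothelial and myeloid cells, had 37 and 43.4 CPM in MGT cells, against 9.2 and 9.79 CPM in LacZ cells, a log2 change of 2.08 ± 0.12 (adjusted p = 3.26e-10). Eng, the endoglin co-receptor that fibroblasts also carry, had 485 and 616 CPM under MGT against 482 and 483 CPM under LacZ and was not called (0.19 ± 0.092, adjusted p = 0.17). Epicardial and mesothelial markers summed to 705.6 and 663.8 CPM in MGT cells, against 700.4 and 746.5 CPM in LacZ cells, and had 4 of 16 higher and 1 lower. The lower one was Efemp1, a fibulin that fibroblasts also make, at 358 and 333 CPM under MGT against 407 and 416 CPM under LacZ (-0.25 ± 0.077, adjusted p = 0.0278), a call lost without LacZ replicate 1 (-0.28), LacZ replicate 2 (-0.23) or MGT replicate 2 (-0.21). Upk1b, a uroplakin of urothelium and mesothelium, had 26.6 and 30.8 CPM in MGT cells, against 1.62 and 2.17 CPM in LacZ cells, a log2 change of 3.92 ± 0.17 (adjusted p = 3.6e-12), and differed from the neonatal response by 4.64 ± 0.20 (adjusted p = 4.79e-11). The part of these cell types in the changes of Flt1, integrins or complement genes was not tested.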

How the data were processed

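RNA of cultured mouse cardiac fibroblasts was sequenced in 12 libraries, 2 in each of 6 groups of vector and age. Vectors follow the treatment field of the labels, because every title names MGT. The authors deposited 1 table with the read count and the FPKM of each gene in each library, per the file headers. Counts are whole numbers per gene, and FPKM values scale them by exon length and library size, per the file headers. Trimmomatic 0.36, Subread 1.5.1, featureCounts, SAMtools and mm10 are named in the submitters' processing notes. The sources used here do not name the annotation release, the handling of reads with several matches or the use of strand. The labels give polyA RNA as the molecule and rRNA depletion in the protocol.

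The table lists 16383 genes. Library totals were derived from counts, FPKM and exon length, and the column sums held 86.5% to 87.5% of them. At 18 months the listed counts came to 13931316 and 14056483 under MGT, and 14907462 and 13879198 under LacZ. CPM values are scaled to the library total after TMM normalization. Genes were filtered with filterByExpr, and edgeR 4.0.16 (R 4.3.3) fitted 6 group means to all 12 libraries, with Benjamini-Hochberg adjustment over the 11940 tested genes and calls at an adjusted p below 0.05. Responses at different ages were compared as interaction terms. The ± after a log2 change is its standard error, taken as the change over the root of the F statistic, with 2 libraries a group and 6 residual degrees of freedom. For genes at 0 counts in a group, folds used a floor of 3 counts over the group's 2 libraries. Intervals and floors cover counting error only.

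The 56 gene lists and 59 gene ontology terms, and the choice of this comparison, were made with earlier results of these data known. Named genes were the 12 largest called changes in each direction with no overlap between vectors and at least 2 CPM in the higher group. Lack of overlap was thus a condition for naming these genes and adds no support for them. For all other genes it is a description only. With 2 libraries a group, lack of overlap also arises in genes without a change. The share of all tested genes without overlap is not given here. Added were up to 3 called members per list and direction, at 1 CPM or more in the higher group, and each list's most abundant member. The rule also took the delivered factors, Nr4a3, Cdkn1a, Cdkn2a and the 6 largest called response differences in each direction, at 2 CPM or more. Not all genes named by the rule appear in the text. Of cell type markers, Tcf21, Ptprc, Adgre1, Pecam1, Sox10 and Myh6 were named outside this rule, after their values were seen. Alternatives were RLE scaling, column sums, no filter, 18-month libraries alone, DESeq2 1.42.0, voom (limma 3.58.1), the replicate number as a block and each library left out in turn. Promoters came from a RefSeq table (GRCm38.p6). The scripts were tested on simulated data.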

Additional observations from a re-analysis of the deposited data

Results flagged for a closer look

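The genes below had the largest tested differences between the response to MGT at 18 months and the response at another age, taken by the naming rule from the interaction terms of the fit by edgeR's quasi-likelihood test. A positive difference means a higher log2 change at 18 months. Both sets share the 18-month libraries, and none of the differences is explained here.

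Against 3 months, Pdlim3 differed by 3.49, with a log2 change of 4.67 at 18 months and 1.18 at 3 months, and Rsad2 by 2.64 (0.26 and -2.39). Dkk2, which had log2 changes of -1.91 and 0.34, differed by -2.24. These 3 calls held in every alternative that was run. Flt1 differed by -1.82 (3.45 and 5.27) and lost its call without LacZ 18-month replicate 1 (-1.58). The other 8 also lost their call on leaving out at least 2 of the libraries one at a time, and most had few counts. The differences were 4.27 for Mx1, an antiviral GTPase, 4.20 for Lrrc17, 2.85 for Ndufa4l2 and 2.84 for Ggt5. They were -2.11 for Chrna7, a nicotinic receptor subunit, -1.99 for Tnfsf11, the cytokine RANKL, -1.94 for Nol4 and -1.83 for Dlk2. In 18-month cells Mx1 had 10 and 7 counts under MGT against 3 and 10 under LacZ, whereas at 3 months it had 19 and 13 counts under MGT against 274 and 218 under LacZ. Ndufa4l2 had 9 and 8 counts under MGT against 7 and 8 under LacZ at 18 months, and 49 and 34 under MGT against 267 and 281 under LacZ at 3 months.

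Against neonatal cells, Myl7 differed by 5.72, Lrrc2 by 4.96, Kank4 by 4.79 and Mybpc3 by 5.82. The fitted values of these genes depend on the prior count, since LacZ libraries at 18 months had at most 2 counts of each. In neonatal LacZ cells Myl7 had 145 and 174 counts, against 840 and 1242 counts in neonatal MGT cells, and Mybpc3 had 21 and 31 against 132 and 200. The Mybpc3 call was lost without any one of the 18-month libraries. Upk1b differed by 4.64: neonatal cells had 1477 and 1480 counts under MGT against 2554 and 2607 under LacZ, and 18-month cells 422 and 490 under MGT against 28 and 35 under LacZ. Cyp2s1 differed by 4.45, with log2 changes of 1.28 at 18 months and -3.17 in neonatal cells. In the other direction Abi3bp, a matrix protein gene, differed by -3.86, with log2 changes of 1.76 at 18 months and 5.62 in neonatal cells. Fras1 differed by -3.04, Rrad by -2.16, Dkk2 by -1.84, Dlk2 by -1.78 and Rgs2 by -1.58. Of these, Fras1 lost its call without LacZ 18-month replicate 1, Rrad without LacZ 18-month replicate 2, Rgs2 without MGT 18-month replicate 2, and Dlk2 without any of 5 libraries left out singly. The part of cardiomyocytes and mesothelial cells in the neonatal differences was not tested.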

How the results depend on the processing

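At 18 months 2252 genes were called in the comparison of MGT with LacZ, 1267 higher and 985 lower, and a required fold of 2 left 443, 407 and 36. The total was 2616 with the 18-month libraries alone in the fit, 2271 with RLE scaling, 2252 with column sums, 2524 with no filter on low counts, 2056 with DESeq2 and 2234 with voom. Leaving out 1 library gave 1191 to 3094 called genes, 698 to 1607 higher and 493 to 1487 lower. These ranges cover only the 18-month and the LacZ 3-month libraries, each left out singly. The top of each range came from leaving out LacZ 3-month replicate 1, an alternative added after the data were seen. Leaving out the other 3-month LacZ library was also added then. For the response differences below, the ranges cover the libraries of the ages compared. Without the filter the response differed from 3 months in 539 genes (352 higher, 187 lower) and from neonatal cells in 635 (466 higher, 169 lower). With 1 library left out the difference from 3 months had 110 to 815 called genes (79 to 470 higher, 31 to 354 lower) and the difference from neonatal cells 186 to 309 (163 to 244 higher, 23 to 65 lower). The labels do not say whether same-numbered libraries are paired. Deviations of same-numbered libraries correlated at 0.007 at 18 months, 0.048 at 3 months and 0.016 in neonatal cells. With 2 libraries a group, correlations over genes cannot decide whether same-numbered libraries shared animals or a culture. With the replicate block the counts were 2398, 375 and 435, and of the called named genes Cdkn1a (0.22) missed the threshold. Of 250 called genes among the 292 named by rule and tested, 172 kept the call in every alternative, 65 lost it only when a library was left out, and none reversed. The median log2 change over all genes lay between -0.001 and 0.03 under these settings and on leaving out each 18-month library. In windows cut to 150 bases 2.19% of those of genes called at least 2-fold higher held a MEF2 box, against 0.534% for all tested genes and 0.861% for all promoters in the table. With 2 libraries a group, a call on genes of low count is limited by depth.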
